A study of Mus musculus with 9 samples.

Results

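The genes described here encode the machinery that shows antigen to T cells, measured in messenger RNA of mouse ears under an eczema-like treatment. They are 33 protein-coding genes of the H2 family, which is the major histocompatibility complex (MHC) of the mouse, and 13 partner genes, 46 of the 55401 features in the deposited count table. Of the 46, 33 belong to the class I pathway, 11 to the class II pathway, and Cd80 and Cd86 are costimulators. Members were taken by their gene symbols, and 12 H2-named rows were left out, namely H2-Ke6, an enzyme gene that only shares the name, and 11 pseudogenes. In the reference annotation 38 of the 46 members lie on chromosome 17.

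The ears came from C57 mice in 3 groups of 3 libraries each. Mice of the first group received MC903 and paeonol at 200 mg/kg, mice of the second received MC903, and control mice received absolute ethyl alcohol. MC903 is calcipotriol, a vitamin D analogue that is used on mouse skin to model atopic dermatitis, and paeonol is a phenolic compound of peony root bark. The labels describe no group given paeonol without MC903, name no vehicle for paeonol, and give neither age, sex nor treatment time. Whether each library is a separate animal is not stated, and the p-values therefore reflect the spread between these libraries, which may be technical.

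Class I molecules present peptides cut in the cytosol by the proteasome, carried into the endoplasmic reticulum by the TAP transporter and loaded onto a heavy chain that is held by beta-2 microglobulin. Almost all nucleated cells make them, and interferon-γ raises the whole pathway. Class II molecules present peptides from engulfed material, are guided by the invariant chain Cd74, and are made mainly by dendritic cells, Langerhans cells, macrophages and B cells. A T cell that meets its peptide on either class also needs costimulation, for which Cd80 and Cd86 on the presenting cell bind Cd28.

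Promoters of both classes share a paired element known as the X and Y boxes, on which RFX, CREB and NF-Y proteins assemble with the transactivators Ciita for class II and Nlrc5 for class I. The stretches upstream of 5 of the most abundant members that have a RefSeq promoter window, and the interval between Tap1 and Psmb9, are shown because these genes carry the changes of each class or share 1 upstream interval. Sequences are RefSeq's, on GRCm38.p6, 5′ to 3′ on the strand of the gene and ending 1 base before the annotated start. Capitals mark TGANG placed 18 to 22 bases before ATTGG, the NF-κB type site GGGATTCCCC of H2-K1, or GAAA followed after 2 bases by GAAA, and in the Tap1 interval they mark CCAAT, the reverse of ATTGG.
H2-Aa, chr17:34287824-34288023, minus strand: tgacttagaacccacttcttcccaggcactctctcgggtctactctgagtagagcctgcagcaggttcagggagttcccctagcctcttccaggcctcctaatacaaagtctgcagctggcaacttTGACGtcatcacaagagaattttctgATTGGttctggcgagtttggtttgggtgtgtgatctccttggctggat
H2-Eb1, chr17:34305667-34305866, plus strand: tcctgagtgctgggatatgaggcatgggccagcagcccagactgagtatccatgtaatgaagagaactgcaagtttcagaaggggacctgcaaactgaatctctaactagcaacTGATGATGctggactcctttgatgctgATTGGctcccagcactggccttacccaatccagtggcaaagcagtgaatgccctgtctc
H2-K1, chr17:34000334-34000533, minus strand: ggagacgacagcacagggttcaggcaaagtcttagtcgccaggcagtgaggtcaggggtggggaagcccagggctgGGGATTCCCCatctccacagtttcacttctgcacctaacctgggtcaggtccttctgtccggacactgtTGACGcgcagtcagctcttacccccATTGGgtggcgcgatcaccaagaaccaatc
H2-D1, chr17:35262894-35263093, plus strand: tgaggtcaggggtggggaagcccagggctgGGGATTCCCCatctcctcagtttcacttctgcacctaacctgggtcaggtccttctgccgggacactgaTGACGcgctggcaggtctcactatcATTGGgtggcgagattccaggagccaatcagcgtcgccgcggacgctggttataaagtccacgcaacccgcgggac
B2m, chr2:122147487-122147686, plus strand: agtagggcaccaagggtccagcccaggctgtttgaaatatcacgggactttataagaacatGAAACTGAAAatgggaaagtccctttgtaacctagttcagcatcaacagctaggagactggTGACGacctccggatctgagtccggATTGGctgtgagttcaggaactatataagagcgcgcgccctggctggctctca
Tap1, chr17:34187331-34187555, plus strand: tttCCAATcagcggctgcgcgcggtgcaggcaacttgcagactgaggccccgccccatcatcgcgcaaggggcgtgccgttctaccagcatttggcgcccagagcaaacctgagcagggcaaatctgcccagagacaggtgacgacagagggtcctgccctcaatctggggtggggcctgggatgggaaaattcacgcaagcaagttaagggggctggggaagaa

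Motifs were searched on both strands in windows from 250 bases before to 50 bases after the start, and were chosen with these promoters in view. Cd74 was left out of the search beforehand, and 37 of the other members had a window. Percentages are shares of windows, while members are counted by gene, with a match in any window of the gene. TGANG at that spacing from ATTGG stood in 1.44% of all 32851 windows. Among the members searched it stood in 5 of the 8 class II genes with a window (H2-Aa, H2-Eb1, H2-Eb2, H2-DMb1 and H2-DMb2) and in 6 of 28 class I genes (B2m, H2-D1, H2-K1, H2-M3, H2-Q6 and H2-Q7). ATTGG alone, which the paired motif contains, stood in 37.4% of all windows, in 8 of 8 class II genes and in 23 of 28 class I genes. GGGATTCCCC, as read from the H2-K1 promoter, stood in 28 windows of the genome, or 0.0852%, among them H2-K1, H2-D1 and H2-Q6. GAAA repeated after 2 bases, of the type interferon regulatory factors bind, stood in 3.44% of windows, among them B2m, H2-T22 and H2-T23. The interval between the annotated starts of Psmb9, on the minus strand, and Tap1, on the plus strand, is 225 bases long. These are matches of letters and do not show binding.

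Library totals were 54.26 to 57.75 M estimated counts, and 21925 genes passed the filter on low counts. Among them were 24 class I members, all 11 class II members and both costimulators. The 9 untested members, all class I (H2-M1, H2-M11, H2-T3 and H2-M10.1 to H2-M10.6), had at most 12 counts in any library. Calls rest on edgeR's quasi-likelihood test over all genes tested, with a Benjamini-Hochberg adjusted p below 0.05 and no minimum fold. Levels are given as CPM (counts per M counts of the TMM-scaled library), and changes are log2 with their standard error (SE). Targets of interferon-γ set 2 libraries apart from their groups, the third MC903 library and the second control library. The 23 genes of that axis summed to 882, 811 and 785 CPM in MC903 with paeonol, 1182, 1053 and 1725 CPM in MC903, and 730, 1626 and 965 CPM in control. In class I members the third MC903 library was the highest of its group for 20 of 24, and the second control library for 22 of 24. Counts of called members are therefore also given without these 2 libraries, and other values with all libraries. Under scaling by library totals alone, the median log2 change over all genes tested was -0.21 in MC903 against control, where TMM gave -0.02, and -0.20 in MC903 with paeonol against control, where TMM gave -0.03. Calls were then 3402 higher and 7224 lower in MC903 against control, where TMM gave 5044 and 5215, and 2155 and 5354 in MC903 with paeonol against control, where TMM gave 3578 and 3187.

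**Figure D1:**
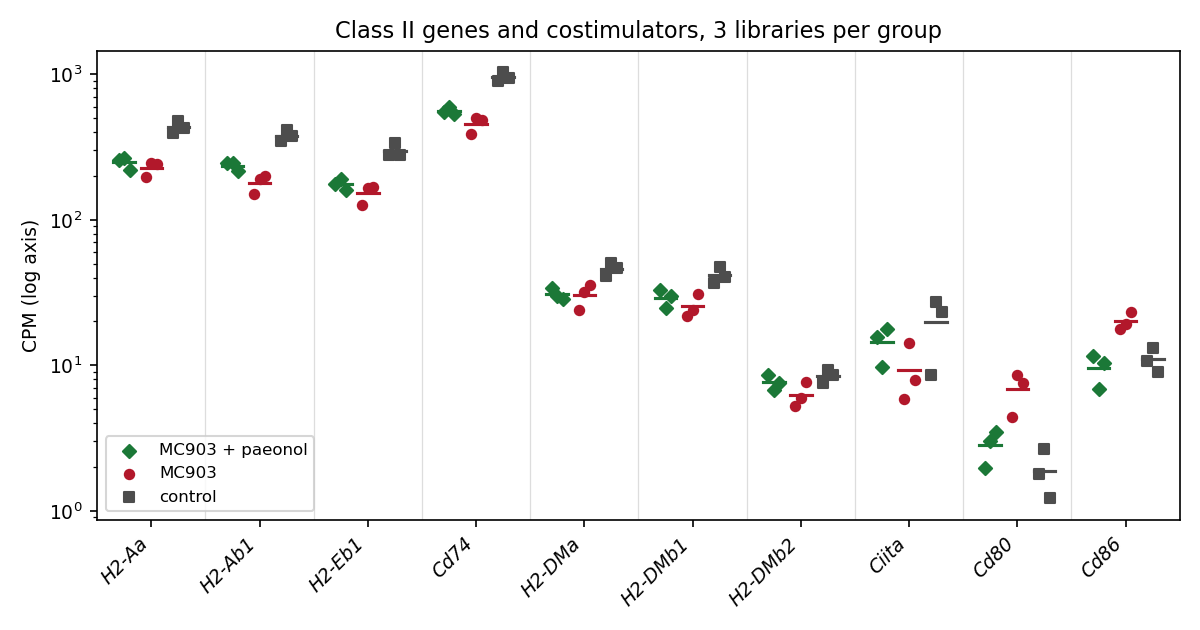
CPM on a log axis of the class II members above about 5 CPM and of the costimulators Cd80 and Cd86. Diamonds are the 3 libraries of MC903 with paeonol, circles MC903 and squares control, and bars are group means. For Cd74, H2-Aa, H2-Ab1, H2-Eb1, H2-DMa and H2-DMb1 both MC903 groups lie wholly below control, while Cd80 and Cd86 are highest in MC903.

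Class II genes were lower in MC903 ears than in control ears. Of 11 class II members tested, 6 fell and 0 rose, where 23.8% of all genes tested were called lower and 46.8% were called in either direction. The median log2 change of the 11 was -0.70, and that of all genes tested was -0.02. The 6 were the invariant chain, the 3 abundant chain genes and 2 subunits of the peptide editor H2-DM. Summed over the 11 members, class II messages were at 1321, 1368 and 1212 CPM in MC903 with paeonol, 922, 1177 and 1177 CPM in MC903, and 2012, 2401 and 2152 CPM in control. In whole tissue, fewer cells of a type and less RNA per cell cannot be told apart.

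Cd74, the chaperone that fills the groove of new class II molecules, had 547, 592 and 529 CPM in MC903 with paeonol, 389, 499 and 484 CPM in MC903, and 893, 1035 and 945 CPM in control. The 3 groups did not overlap, and the order was MC903, then MC903 with paeonol, then control. In MC903 against control it fell by 1.07 ± 0.10 (SE; adjusted p = 5.14e-06), to 47.7% of the control level. H2-Aa, the α chain of the I-A molecule, had 259, 266 and 219 CPM in MC903 with paeonol, 197, 244 and 240 CPM in MC903, and 396, 475 and 429 CPM in control. Both MC903 groups lay below control and overlapped each other. Its log2 change in MC903 against control was -0.93 ± 0.10 (adjusted p = 2.44e-05).

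H2-Ab1, the β chain of I-A, had 244, 246 and 218 CPM in MC903 with paeonol, 150, 190 and 199 CPM in MC903, and 347, 413 and 375 CPM in control. None of the 3 groups overlapped. Its log2 change in MC903 against control was -1.07 ± 0.11 (adjusted p = 1.13e-05). H2-Eb1, the β chain of I-E, had 177, 190 and 160 CPM in MC903 with paeonol, 125, 165 and 168 CPM in MC903, and 277, 339 and 281 CPM in control. Both MC903 groups lay below control and overlapped each other, and the log2 change in MC903 against control was -0.97 ± 0.12 (adjusted p = 8.46e-05). The gene of the I-E α chain is defective in C57BL/6 mice and is annotated as a pseudogene, so it was not among the members.

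The peptide editor H2-DM, which exchanges the invariant chain fragment for antigen peptides, had smaller log2 changes than the chains it serves, a difference that was not tested. H2-DMa had 33.8, 30.1 and 28.5 CPM in MC903 with paeonol, 23.9, 32.1 and 35.4 CPM in MC903, and 40.9, 50.4 and 46.9 CPM in control. H2-DMb1 had 33.0, 24.8 and 29.7 CPM in MC903 with paeonol, 21.7, 23.8 and 31.0 CPM in MC903, and 37.0, 47.0 and 40.7 CPM in control. For both genes the MC903 groups lay below control and overlapped each other. In MC903 against control H2-DMa fell by 0.60 ± 0.14 (adjusted p = 0.00379) and H2-DMb1 by 0.70 ± 0.15 (adjusted p = 0.00239). H2-DMb2 changed by -0.42 ± 0.17 and was not called (adjusted p = 0.0672). H2-DMb1 and H2-DMb2 share 27.2% and 29.5% of their 50-base windows with annotated copies, mostly each other, so reads may be split between them.

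Ciita, the transactivator without which class II genes are hardly transcribed, was variable. It had 15.6, 9.68 and 17.8 CPM in MC903 with paeonol, 5.91, 14.2 and 7.90 CPM in MC903, and 8.64, 27.4 and 23.4 CPM in control. The first control library lay within the range of MC903. The log2 change of -1.09 ± 0.50 in MC903 against control was of the size seen for Cd74 and was not called (adjusted p = 0.119). Ciita overlaps Dexi on the opposite strand, and since the strand setting of the counting is not given, reads of both genes cannot be told apart here. Other members also overlap annotated genes. Among them, H2-DMa overlaps Brd2 on the opposite strand and another gene on its own strand. B2m overlaps Patl2, H2-Eb1 overlaps Gm20513 and H2-Q4 overlaps Gm11131, each on the opposite strand.

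H2-Oa and H2-Ob form H2-DO, an inhibitor of H2-DM known from B cells, and both were low. H2-Ob lay between 1.87 and 2.71 CPM in MC903 with paeonol, between 1.94 and 2.43 CPM in MC903, and between 2.92 and 3.63 CPM in control. Its change in MC903 against control, -0.53 ± 0.22, was not called (adjusted p = 0.0762). The 8 B cell markers had 0 calls in every comparison by edgeR, and summed to 2.70 to 12.7 CPM in MC903 with paeonol, 10.1 to 15.6 CPM in MC903 and 12.1 to 12.7 CPM in control. H2-Eb2, the remaining member, stayed at or below 0.671 CPM in every library and was not called.

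The 6 class II calls in MC903 against control held without the 2 libraries that stood apart, and in every other alternative but 1. A covariate made of skeletal muscle markers, which follows the group with an R squared of 0.913, ended all 6 at log2 changes of -0.88 for Cd74, -0.92 for H2-Aa, -1.07 for H2-Ab1, -0.99 for H2-Eb1, -0.62 for H2-DMa and -0.93 for H2-DMb1, and adjusted p between 0.132 and 0.543. Muscle markers themselves were lower in MC903 for 19 of 20 genes, at 3275 to 4183 summed CPM in MC903 against 7343 to 11024 CPM in control, and the part of tissue makeup in the class II result was not tested.

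With paeonol added to MC903, the log2 change against control was negative for 10 of 11 class II members. Against MC903 it was negative for 1 of 11, with a median of 0.20, where that of all genes tested was 0.00. Summed class II messages, at 1212 to 1368 CPM with paeonol, lay above the 922 to 1177 CPM of MC903. Of the 11 members, 2 were called higher against MC903, Cd74 and H2-Ab1, and 1 was called lower, H2-Oa. Of all genes tested, 29.7% were called. The log2 change of Cd74 was 0.28 ± 0.09 (adjusted p = 0.0424) and that of H2-Ab1 was 0.39 ± 0.10 (adjusted p = 0.0157). The Cd74 call was lost in 8 of 18 alternatives, over which its adjusted p ran between 0.0147 and 0.302, and the H2-Ab1 call in 3. H2-Oa had 0.495, 0.332 and 0.173 CPM in MC903 with paeonol, 0.666, 1.15 and 0.926 CPM in MC903, and 1.07, 0.869 and 0.456 CPM in control. Its fall of 1.44 ± 0.50 against MC903 rests on 9 to 62 counts a library (adjusted p = 0.0475), and the call was lost in 11 of 18 alternatives. Leaving out the first or second paeonol library or the third MC903 library left 1, 0 and 1 of the 3 class II calls, and leaving out the third MC903 and second control libraries together left H2-Ab1 alone.

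Against control, 6 class II members were lower in MC903 with paeonol and 0 were higher, where 14.5% of all genes tested were called lower and 30.9% in either direction. They were Cd74 (-0.78 ± 0.10, adjusted p = 0.000163), H2-Aa (-0.81 ± 0.10), H2-Ab1 (-0.68 ± 0.10), H2-Eb1 (-0.77 ± 0.12), H2-DMa (-0.58 ± 0.14) and H2-DMb1 (-0.51 ± 0.15). For all 6 the 3 paeonol libraries lay below the 3 control libraries. The H2-DMb1 call was lost in 5 alternatives, the skeletal muscle covariate among them, and the other 5 calls with that covariate alone.

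Class II chains were also set against each other within each library. Scaled for transcript length, the H2-Aa to Cd74 ratio was 0.556 ± 0.038 in MC903 with paeonol, 0.622 ± 0.012 in MC903 and 0.565 ± 0.0096 in control (SD, n = 3 each). The H2-Aa to H2-Ab1 ratio was 1.13 ± 0.043 in MC903 with paeonol, 1.36 ± 0.061 in MC903 and 1.23 ± 0.0041 in control. No paeonol library reached the control values and no MC903 library fell to them. Ratios were not tested.

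**Figure D2:**
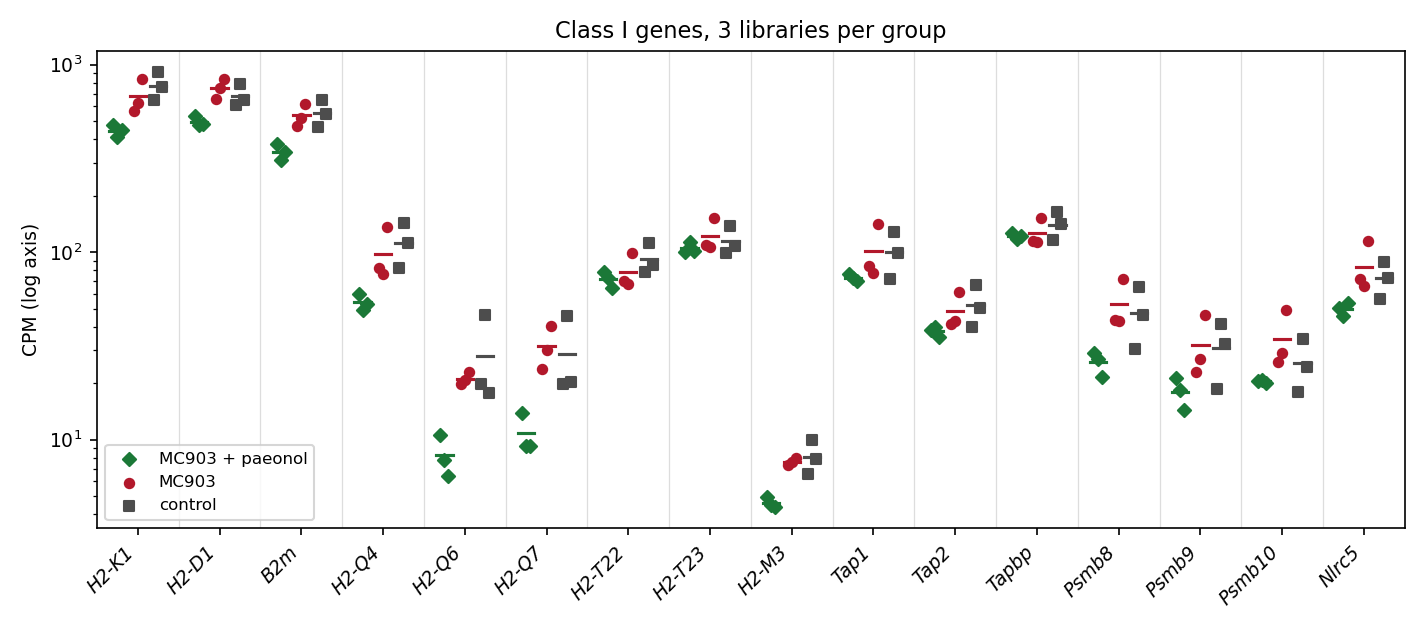
CPM on a log axis of a selection of class I heavy chains and pathway genes, with diamonds for MC903 with paeonol, circles for MC903 and squares for control, 3 libraries each, and bars for means. Cd1d1, H2-Q1, H2-M5, H2-M2 and H2-T24, with means of 4.33 to 11.2 CPM over all libraries, are not drawn. Of these, Cd1d1, H2-M2 and H2-M5 were lowest in MC903. The paeonol libraries lie below all other libraries for H2-K1, H2-D1, B2m, H2-Q4, H2-Q6, H2-Q7 and H2-M3, and the highest circle and the highest square of most genes are the third MC903 and the second control library.

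Class I genes followed another pattern. In MC903 against control H2-K1, H2-D1 and B2m were not called, and in MC903 with paeonol they were lower than in either other group. The heavy chains H2-T23 and H2-T22, with means of 114 and 80.7 CPM over all libraries, were not called in any comparison. Of 24 class I members tested, 12 fell and 2 rose in MC903 with paeonol against MC903, where 14.3% of all genes tested were called lower and 15.3% higher. The median log2 change was -0.69, against 0.00 for all genes tested. Paeonol and MC903 libraries did not overlap for 20 of the 24. Of all genes tested, 43.9% did not overlap and 29.7% were called. Summed over the heavy chain genes, class I messages were at 1304, 1173 and 1192 CPM in MC903 with paeonol, 1566, 1721 and 2175 CPM in MC903, and 1588, 2230 and 1790 CPM in control.

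B2m, the light chain of every classical class I molecule (GRCm38 chromosome 2, 122147686 to 122153083), had 375, 309 and 341 CPM in MC903 with paeonol, 474, 521 and 618 CPM in MC903, and 463, 647 and 544 CPM in control. The paeonol libraries lay below the other 6, which overlapped. It fell by 0.65 ± 0.13 against MC903 (adjusted p = 0.0047), to 63.5% of that level, and by 0.69 ± 0.13 against control (adjusted p = 0.00361). H2-D1, a classical heavy chain that presents to CD8 T cells (chromosome 17, 35262730 to 35267499), had 530, 478 and 481 CPM in MC903 with paeonol, 660, 755 and 844 CPM in MC903, and 608, 786 and 651 CPM in control. Here too the paeonol libraries were the 3 lowest. Its log2 change was -0.60 ± 0.11 against MC903 (adjusted p = 0.00159) and -0.46 ± 0.11 against control (adjusted p = 0.00775).

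H2-K1, the other classical heavy chain of C57BL/6 mice (chromosome 17, 33996017 to 34000347), had 479, 411 and 446 CPM in MC903 with paeonol, 568, 629 and 839 CPM in MC903, and 645, 909 and 759 CPM in control. The paeonol libraries were again the 3 lowest. It fell by 0.61 ± 0.16 against MC903 (adjusted p = 0.02) and by 0.79 ± 0.16 against control (adjusted p = 0.00566). The call against MC903 was lost without the second or the third paeonol library, without the expression filter and with the muscle covariate, over a range of adjusted p of 0.000332 to 0.166 in 18 alternatives. In MC903 against control the changes of these 3 genes, -0.04 ± 0.13 for B2m, 0.14 ± 0.11 for H2-D1 and -0.18 ± 0.16 for H2-K1, were not called.

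Scaled for transcript length, Cd74 was at 394, 324 and 679 CPM per kb in MC903 with paeonol, MC903 and control, and B2m at 397, 625 and 641 CPM per kb in the same groups. In MC903 every B2m value (551 to 719 CPM per kb) exceeded every Cd74 value (276 to 354 CPM per kb). Values of Cd74 and B2m overlapped in MC903 with paeonol and in control. H2-K1 followed B2m at 275, 419 and 476 CPM per kb in MC903 with paeonol, MC903 and control. The length-scaled ratio of H2-K1 to B2m was 0.694 ± 0.015 in MC903 with paeonol, 0.666 ± 0.047 in MC903 and 0.742 ± 0.0040 in control (SD, n = 3 each).

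The non-classical Qa and M genes with calls included larger changes. H2-Q7, which encodes the Qa-2 antigen, had 13.8, 9.26 and 9.28 CPM in MC903 with paeonol, 23.8, 30.0 and 40.6 CPM in MC903, and 19.7, 45.7 and 20.4 CPM in control. H2-Q6, a near copy, had 10.5, 7.80 and 6.42 CPM in MC903 with paeonol, 19.8, 20.8 and 22.8 CPM in MC903, and 19.9, 46.2 and 17.6 CPM in control. For both, the paeonol libraries were the 3 lowest and the second control library the highest. H2-Q7 fell by 1.54 ± 0.39 against MC903 (adjusted p = 0.0205) and by 1.41 ± 0.39 against control (adjusted p = 0.0285). H2-Q6 fell by 1.36 ± 0.38 against MC903 (adjusted p = 0.0299) and by 1.76 ± 0.38 against control (adjusted p = 0.0101). The H2-Q7 calls were each lost in 5 of 18 alternatives, and those of H2-Q6 in 7 against MC903 and in 2 against control. H2-Q7 shares 34.9% and H2-Q6 32% of their 50-base windows with other annotated genes, so the split of reads between them is uncertain. The same limit holds for H2-T23 (28.8%), Cd1d1 (25.8%), H2-Q4 (24.3%), H2-Q1 (22.9%) and H2-D1 (14.3%).

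H2-Q4, another Qa gene, had 60.1, 49.1 and 53.0 CPM in MC903 with paeonol, 82.5, 76.7 and 136 CPM in MC903, and 82.8, 143 and 112 CPM in control. The paeonol libraries were the 3 lowest. It fell by 0.86 ± 0.27 against MC903 (adjusted p = 0.0488, lost in 10 of 18 alternatives) and by 1.06 ± 0.27 against control (adjusted p = 0.0225, lost in 7). H2-M3, which presents formylated bacterial peptides, had 4.95, 4.48 and 4.39 CPM in MC903 with paeonol, 7.28, 7.63 and 7.95 CPM in MC903, and 6.53, 9.91 and 7.93 CPM in control. No paeonol library overlapped the others, and it fell by 0.73 ± 0.17 against MC903 (adjusted p = 0.00739) and by 0.82 ± 0.17 against control (adjusted p = 0.0038). H2-Q1 had 8.14, 6.90 and 5.77 CPM in MC903 with paeonol, 9.73, 11.6 and 13.4 CPM in MC903, and 8.85, 10.2 and 8.28 CPM in control. The paeonol values were the 3 lowest. It fell by 0.74 ± 0.17 against MC903 (adjusted p = 0.00655), while the difference of -0.39 ± 0.17 against control was not called (adjusted p = 0.106).

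Not every heavy chain moved with H2-K1. H2-T23, which encodes Qa-1, the ligand of the inhibitory receptor NKG2A, had 100, 113 and 102 CPM in MC903 with paeonol, 110, 106 and 151 CPM in MC903, and 99.3, 138 and 108 CPM in control. The groups overlapped, and the log2 change was -0.22 ± 0.16 against MC903 (adjusted p = 0.342) and -0.13 ± 0.16 against control. H2-T22, a ligand of some γδ T cells, changed by -0.14 ± 0.18 against MC903 and -0.35 ± 0.18 against control, with no call. It shares 37.9% of its windows with the pseudogene H2-T10.

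Cd1d1, H2-M2 and H2-M5 were lower in MC903 than in control, and the first 2 were higher in MC903 with paeonol than in MC903. Cd1d1, which presents lipids to natural killer T cells (chromosome 3, 86995834 to 86999441), had 13.8, 10.5 and 10.7 CPM in MC903 with paeonol, 7.30, 5.84 and 6.12 CPM in MC903, and 12.8, 17.4 and 16.8 CPM in control. MC903 lay below both other groups, which overlapped. The log2 change was 0.86 ± 0.16 in MC903 with paeonol against MC903 (adjusted p = 0.00225), -1.29 ± 0.17 in MC903 against control (adjusted p = 6.64e-05) and -0.43 ± 0.16 in MC903 with paeonol against control (adjusted p = 0.0672). H2-M2 had 5.33, 4.59 and 5.52 CPM in MC903 with paeonol, 2.00, 2.50 and 1.91 CPM in MC903, and 5.14, 7.40 and 4.90 CPM in control. Its MC903 libraries were also the 3 lowest, with a log2 change of 1.27 ± 0.22 in MC903 with paeonol against MC903 (adjusted p = 0.00107) and -1.45 ± 0.22 in MC903 against control (adjusted p = 0.000199). The first 2 comparisons share the MC903 libraries. H2-M5 had 9.03, 8.63 and 8.92 CPM in MC903 with paeonol, 4.52, 2.46 and 8.10 CPM in MC903, and 9.51, 16.2 and 11.8 CPM in control. It was lowest in MC903, called against control (-1.31 ± 0.37, adjusted p = 0.0164) and not called in MC903 with paeonol against MC903 (0.82 ± 0.37, adjusted p = 0.135).

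The scarce heavy chain genes H2-Q2, H2-Q10 and H2-M9 were higher in MC903 than in control. H2-Q2 had 0.459, 0.166 and 0.748 CPM in MC903 with paeonol, 1.27, 2.42 and 2.52 CPM in MC903, and 0.128, 0.394 and 0.524 CPM in control. H2-Q10, which encodes a secreted heavy chain best known from liver, had 1.06, 0.738 and 0.422 CPM in MC903 with paeonol, 2.94, 3.11 and 4.23 CPM in MC903, and 1.02, 2.12 and 1.74 CPM in control. In both, MC903 lay above the other 2 groups without overlap. H2-Q2 changed by -2.18 ± 0.58 in MC903 with paeonol against MC903 (adjusted p = 0.015) and by 2.57 ± 0.59 in MC903 against control (adjusted p = 0.00379). H2-Q10 changed by -2.20 ± 0.38 (adjusted p = 0.00115) and by 1.07 ± 0.36 (adjusted p = 0.0285) in the same comparisons, which share the MC903 libraries. Its call in MC903 against control was lost in 6 of 18 alternatives, over which the log2 change ran between 0.43 and 1.31 and the adjusted p between 0.0121 and 0.91. Against control H2-Q10 fell by 1.13 ± 0.37 in MC903 with paeonol (adjusted p = 0.0387, lost in 10 of 18 alternatives). H2-M9 was at 0.781 to 1.22 CPM in MC903 and 0 to 0.237 CPM in control, and its call (adjusted p = 0.0392) was lost in 9 of 18 alternatives. H2-T24 was not called in any comparison.

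Taking the 24 class I members as a whole, 3 rose (H2-Q2, H2-Q10 and H2-M9) and 3 fell (Cd1d1, H2-M2 and H2-M5) in MC903 against control, or 6 called of 24 where 46.8% of all genes tested were called. Their median log2 change was 0.04. In MC903 with paeonol against control 0 rose and 8 fell, namely B2m, H2-D1, H2-K1, H2-M3, H2-Q4, H2-Q6, H2-Q7 and H2-Q10, where 14.5% of all genes tested were called lower, with a median of -0.46 against -0.03 for all genes tested. Without the third MC903 and second control libraries, counts of class I calls were 14 in MC903 with paeonol against MC903, 8 in MC903 with paeonol against control and 4 in MC903 against control, and 1 of 14, 1 of 8 and 2 of 6 of the calls made with all libraries were lost. Leaving out single libraries moved the count against MC903 more: it was 9 without the third MC903 library, 8 without the second paeonol library and 8 without the third paeonol library. Against control it was 5 without the second paeonol library and 4 without the third, where it was 8 with all libraries.

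Genes that supply peptide to class I molecules gave fewer calls. Psmb8, Psmb9 and Psmb10 encode the catalytic subunits that interferon-γ exchanges for Psmb5, Psmb6 and Psmb7 to form the immunoproteasome. Psmb8 had 28.8, 26.9 and 21.6 CPM in MC903 with paeonol, 43.4, 42.8 and 72.2 CPM in MC903, and 30.5, 65.0 and 46.1 CPM in control. The paeonol libraries were the 3 lowest, and the third MC903 and second control libraries the 2 highest. It fell by 1.03 ± 0.32 against MC903 (adjusted p = 0.0459), a call that was lost in 11 of 18 alternatives. Psmb9 (-0.83 ± 0.36, adjusted p = 0.132) and Psmb10 (-0.75 ± 0.29, adjusted p = 0.0871) were not called against MC903, and none of the 3 was called in the other comparisons.

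The length-scaled ratio of Psmb8 to its constitutive counterpart Psmb5 was 0.146, 0.116 and 0.085 in MC903 with paeonol, 0.183, 0.165 and 0.280 in MC903, and 0.205, 0.377 and 0.298 in control. Paeonol libraries were below all others. For Psmb9 to Psmb6 the ratio averaged 0.079 ± 0.020 in MC903 with paeonol, 0.137 ± 0.053 in MC903 and 0.161 ± 0.055 in control (SD, n = 3 each). For Psmb10 to Psmb7 it averaged 0.136 ± 0.010, 0.231 ± 0.089 and 0.208 ± 0.074 in the same order of groups. The constitutive genes Psmb5, Psmb6 and Psmb7 were each called higher in both MC903 groups than in control, and they are the denominators of these ratios.

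Tap1 and Tap2 form the peptide transporter, and Tapbp, tapasin, holds it to the heavy chain. Tap1 had 76.7, 72.8 and 70.0 CPM in MC903 with paeonol, 84.1, 77.4 and 141 CPM in MC903, and 72.2, 128 and 99.2 CPM in control. Tap1, Tap2 and Tapbp were not called in any comparison, with log2 changes against MC903 of -0.46 ± 0.27, -0.37 ± 0.21 and -0.05 ± 0.14. In the GENCODE annotation Tap1 and Psmb9 overlap at their divergent starts, where RefSeq places the interval shown above between them, and without a stated strand setting reads there could count for either.

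Nlrc5, the transactivator of class I promoters, had 50.4, 45.8 and 53.5 CPM in MC903 with paeonol, 71.6, 65.8 and 114 CPM in MC903, and 56.2, 88.3 and 73.0 CPM in control. The paeonol libraries were the 3 lowest. It fell by 0.75 ± 0.24 against MC903 (adjusted p = 0.0478), and the call was lost in 10 of 18 alternatives. Against control its change of -0.54 ± 0.24 was not called (adjusted p = 0.129).

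**Figure D3:**
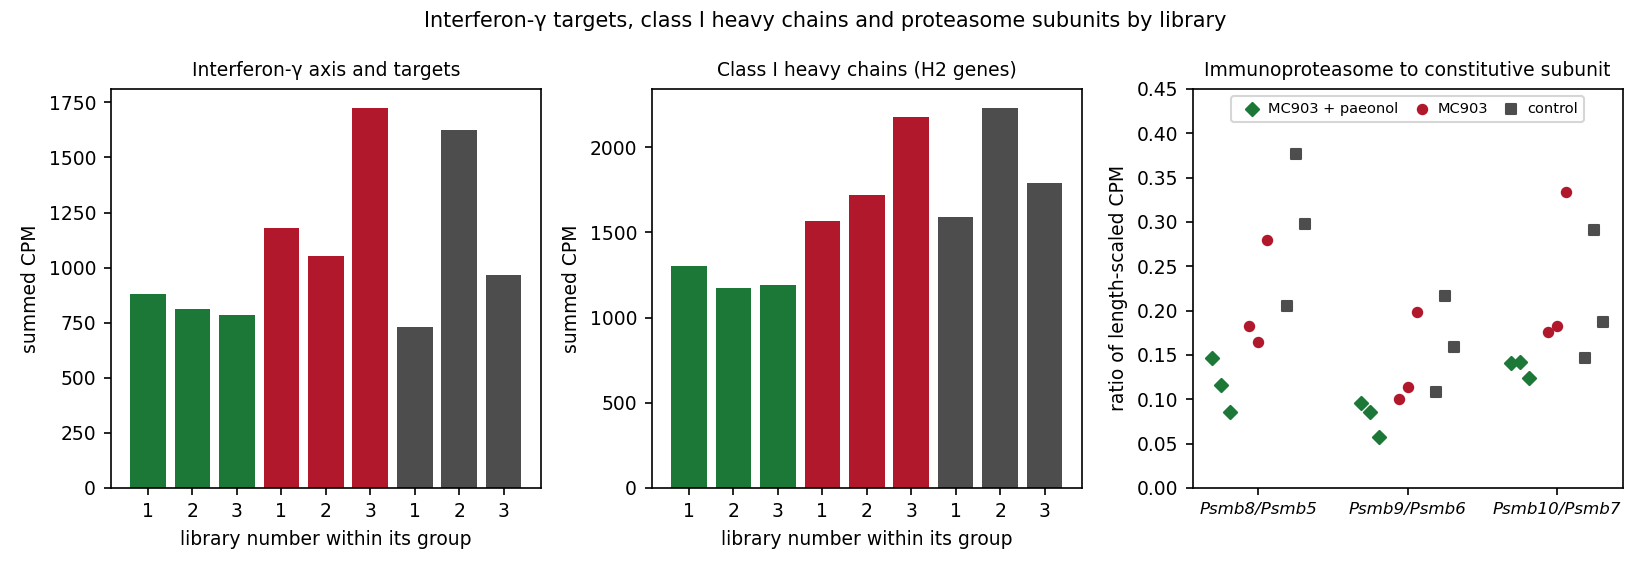
Left and middle, summed CPM by library of the 23 genes of the interferon-γ axis and of the class I heavy chain genes, with MC903 with paeonol left, MC903 in the middle and control right. Right, length-scaled ratios of Psmb8, Psmb9 and Psmb10 to Psmb5, Psmb6 and Psmb7, 1 point a library. The third MC903 and second control libraries have the 2 highest bars in both sums, 1725 and 1626 CPM on the left.

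The interferon-γ axis spread widely inside the MC903 and control groups. The shares of all genes tested that were called, against which this and the following lists are read, were 29.7% in MC903 with paeonol against MC903, 30.9% in MC903 with paeonol against control and 46.8% in MC903 against control. Of 23 genes tested, 0 rose and 3 fell in MC903 with paeonol against MC903 (Jak2, Irf8 and Gbp2), and the median log2 change was -0.90. In MC903 against control 2 rose (Jak2 and Ifngr2) and 0 fell, and in MC903 with paeonol against control 1 rose (Jak1) and 0 fell. Gbp2, a GTPase that interferon-γ induces, had 33.5, 19.1 and 19.7 CPM in MC903 with paeonol, 97.1, 76.9 and 182 CPM in MC903, and 23.9, 137 and 70.0 CPM in control. It was high in the same 2 libraries as the class I genes, and its fall against MC903 was 2.30 ± 0.69 (adjusted p = 0.0495). Ifng itself was at 0, 0 and 0.077 CPM in MC903 with paeonol, 0.137, 0.444 and 1.02 CPM in MC903, and 0, 1.44 and 0 CPM in control. The part of this axis in the class I result was not tested.

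Cd80 and Cd86 were both called in MC903 against control and in MC903 with paeonol against MC903, comparisons that share the MC903 libraries. Cd80 had 1.98, 3.02 and 3.47 CPM in MC903 with paeonol, 4.44, 8.63 and 7.50 CPM in MC903, and 1.78, 2.64 and 1.22 CPM in control. Cd86 had 11.5, 6.92 and 10.4 CPM in MC903 with paeonol, 17.7, 19.1 and 23.4 CPM in MC903, and 10.7, 13.1 and 9.04 CPM in control. For both, MC903 lay above the other groups, which overlapped. In MC903 against control Cd80 rose by 1.87 ± 0.34 (adjusted p = 0.000833), or 3.65-fold, and Cd86 by 0.87 ± 0.20 (adjusted p = 0.00371), or 1.83-fold. In MC903 with paeonol against MC903 Cd80 fell by 1.28 ± 0.33 (adjusted p = 0.0133) and Cd86 by 1.06 ± 0.20 (adjusted p = 0.00217). The Cd80 call against MC903 was lost without the second MC903 or the first paeonol library, and all 4 calls were lost with the muscle covariate. None was lost without the 2 libraries that stood apart. Against control neither was called in MC903 with paeonol.

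**Figure D4:**
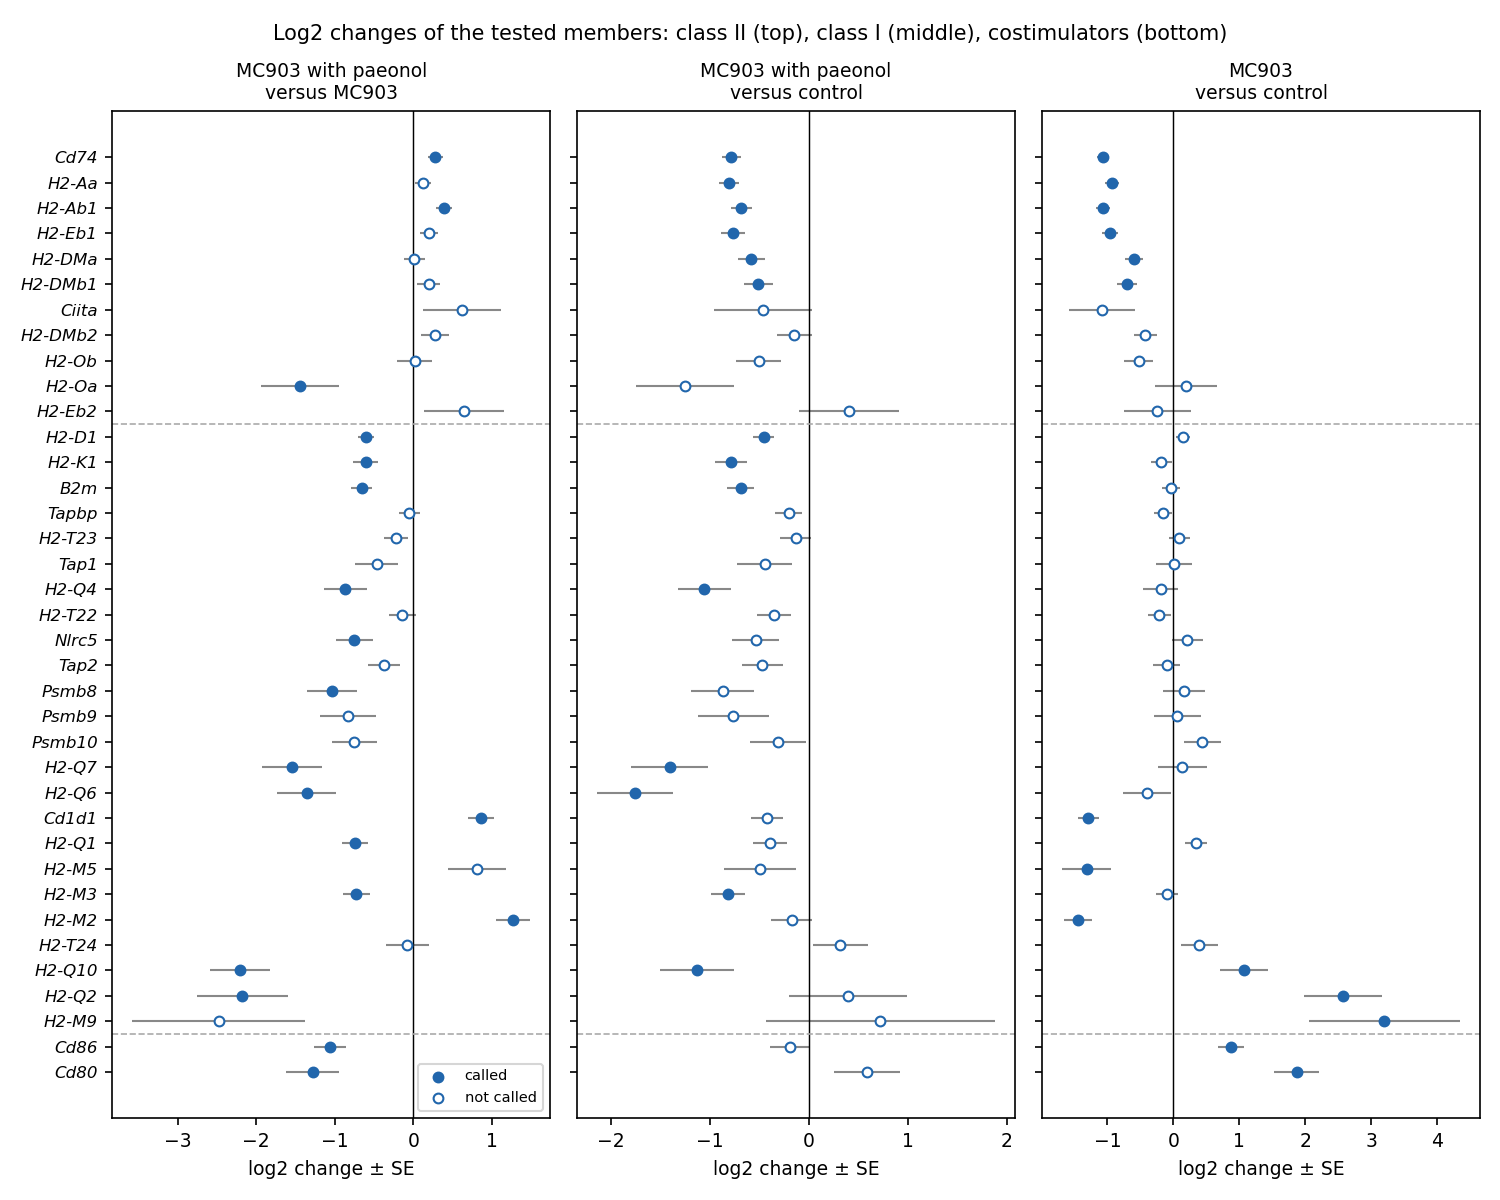
Log2 change with its SE of the 37 tested members in the 3 comparisons, class II at the top, class I in the middle and costimulators at the bottom, each ordered by level, and with a separate horizontal scale in each panel. Filled points passed the adjusted p of 0.05. Class II points lie left of 0 for 10 of 11 members in both comparisons with control, and class I points lie left of 0 for 21 of 24 members where MC903 with paeonol is set against MC903.

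Other genes of the class II pathway changed in both directions. Of 18 tested, 9 rose and 4 fell in MC903 against control. Lysosomal proteases that rose were Ctsb, Ctsl, Ctss, Lgmn and Ctsz, while Ctsd and Ctse were not called. Ctsz was at 122 ± 14 CPM in MC903 and 61.0 ± 8.6 CPM in control (SD, n = 3 each; log2 change 1.01 ± 0.11, adjusted p = 2.03e-05), and Lgmn rose by 1.06 ± 0.13. March8, a ubiquitin ligase that removes class II and other proteins from the surface, fell by 0.67 ± 0.07 (adjusted p = 2.48e-05). March1, of the same list, went the other way. It had 13.6, 13.7 and 18.8 CPM in MC903 and 8.24, 12.1 and 7.94 CPM in control. Its MC903 with paeonol libraries had 5.81, 6.29 and 4.05 CPM. Rfx5, Rfxap and Nfyb, subunits of the factors that bind the X and Y boxes, fell by 0.29 ± 0.07, 0.31 ± 0.11 and 0.28 ± 0.08. The list's other genes of such factors, Creb1, Rfxank, Nfya and Nfyc, did not fall. Their means were 64.2, 33.2, 42.2 and 45.3 CPM in MC903 and 54.8, 32.3, 39.7 and 42.2 CPM in control. Of the 18, 3 rose and 7 fell in MC903 with paeonol against MC903, where Ctsz fell by 1.31 ± 0.11, Lgmn by 1.21 ± 0.13 and Ctsb by 0.83 ± 0.10. Against control 2 rose and 2 fell in MC903 with paeonol.

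Of 16 other genes of the class I pathway tested, 9 rose and 0 fell in MC903 against control, among them the chaperones Calr (0.85 ± 0.10) and Pdia3 (0.52 ± 0.07) and the proteasome activator Psme3 (0.70 ± 0.05). In MC903 with paeonol against MC903, 1 rose (Ide) and 1 fell (Irf2), and against control 9 rose and 0 fell. Of 9 other costimulatory and checkpoint genes tested, 3 rose and 0 fell in MC903 against control, namely Icosl (1.01 ± 0.16), Ctla4 (1.71 ± 0.30) and Pdcd1lg2 (1.80 ± 0.57). When MC903 with paeonol was set against MC903, whose libraries serve both comparisons, 0 rose and 3 fell, Icosl by 1.22 ± 0.16, Ctla4 by 1.53 ± 0.30 and Pdcd1lg2 by 1.88 ± 0.57. Against control 1 fell in MC903 with paeonol, Cd200, and 0 rose.

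Markers of cells that carry these molecules differed between the groups in several directions. Of 18 dendritic and Langerhans cell markers, 5 rose and 7 fell in MC903 against control, and the median log2 change was -0.40. They summed to 643 to 677 CPM in MC903 with paeonol, 798 to 852 CPM in MC903 and 510 to 552 CPM in control. Clec10a, a lectin shared with macrophages, was at 49.8 ± 5.7 CPM in MC903 with paeonol, 165 ± 19 CPM in MC903 and 63.9 ± 1.2 CPM in control (SD, n = 3 each). Flt3, the growth factor receptor of dendritic cells, was at 2.11 ± 0.20 CPM in MC903 with paeonol, 1.90 ± 0.32 CPM in MC903 and 6.90 ± 0.54 CPM in control (SD, n = 3 each). Cd207, langerin, a marker of Langerhans cells, was not called in MC903 against control. It had 14.3, 13.9 and 14.9 CPM in MC903 with paeonol, 8.55, 13.3 and 14.6 CPM in MC903, and 16.5, 16.6 and 15.9 CPM in control. Epcam, of the same list, was at 72.3 ± 4.0 CPM in MC903 with paeonol, 22.9 ± 2.0 CPM in MC903 and 73.6 ± 10.4 CPM in control (SD, n = 3 each). Of the 18 markers 5 rose and 3 fell in MC903 with paeonol against MC903, and 2 rose and 5 fell against control.

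Macrophage markers were in sum highest in MC903, whose libraries serve the first 2 comparisons that follow. Of 17 tested, 13 rose and 2 fell in MC903 against control, 1 rose and 13 fell in MC903 with paeonol against MC903, and 1 rose and 9 fell in MC903 with paeonol against control. Their summed level was 820 to 1138 CPM in MC903 with paeonol, 2186 to 2465 CPM in MC903 and 1230 to 1327 CPM in control. Of 14 markers of T and NK cells tested, 6 rose and 2 fell in MC903 against control, 1 rose and 7 fell in MC903 with paeonol against MC903, and 1 rose and 2 fell against control. All 15 listed summed to 48.3 to 63.5 CPM in MC903 with paeonol, 74.8 to 112 CPM in MC903 and 56.6 to 72.5 CPM in control. Cd3g, a chain of the T cell receptor complex, was at 8.74 ± 2.2 CPM in MC903 with paeonol, 5.00 ± 1.2 CPM in MC903 and 14.5 ± 0.77 CPM in control (SD, n = 3 each). Gzmb, a killer cell protease, was at 1.19 ± 0.38 CPM in MC903 with paeonol, 16.2 ± 4.8 CPM in MC903 and 2.40 ± 1.9 CPM in control (SD, n = 3 each).

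All 8 endothelial markers fell in MC903 with paeonol, against MC903 and against control, at 169 to 238 summed CPM in MC903 with paeonol, 325 to 357 CPM in MC903 and 304 to 357 CPM in control. Of 12 keratinocyte markers 7 rose and 3 fell in MC903 with paeonol against MC903, 10 rose and 1 fell against control, and 5 rose and 4 fell in MC903 against control. They summed to 49470 to 53713 CPM in MC903 with paeonol, 39866 to 46976 CPM in MC903 and 20050 to 23313 CPM in control. Muscle markers gave 7 higher and 1 lower of 20 in MC903 with paeonol against MC903, and 0 higher and 20 lower against control, at 3844 to 5114 summed CPM in MC903 with paeonol. The part of these cell types in the results on the members was not tested.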

How the data were processed

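The deposited table holds whole numbers per gene, taken here as estimated counts as the authors deposited them, unscaled between libraries. The values 4 and 8 are more frequent than their neighbours in each library, so how whole numbers were made is open, low counts may stand for fewer fragments, and counts divided by 4 were an alternative. The tools named per the submitters' processing notes are StringTie 1.3.4d, HISAT2 2.0.4 and cutadapt, with the build GRCm38. The sources used here do not give the role of each, the annotation, or whether counting used strand. Per the labels' protocols, RNA was extracted with Trizol, selected with oligo(dT), and its second strand marked with dUTP. Of 55401 features, 55141 matched a GENCODE M21 symbol, and genes left untested held 0.0398% of all counts.

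All 9 libraries were fitted together in edgeR 4.0.16 (R 4.3.3; TMM factors 0.942 to 1.09, filterByExpr with minimum count 10 and minimum total 15, robust quasi-likelihood, biological coefficient of variation 0.214). Tests are two-sided, and the SE was derived from the log2 change and its F value. CPM per kb uses the longest coding transcript. Calling was tested on simulated data. DESeq2 1.42.0 was an alternative, among 18, of which leaving out 2 libraries together was chosen after seeing the data. Values are given per library for members with a mean of at least 5 CPM and a call, and for Cd80, Cd86, Ciita and Nlrc5; of each list, up to 3 genes with the smallest p were named. Some genes (H2-Q2, H2-Q10, H2-M2, H2-Oa, H2-T23, Tap1, Ifng, Cd207, Clec10a, Cd3g, Rfx5, Rfxap and Nfyb, and the H2-named rows outside the members) fall outside that rule and were chosen after their values were seen. March1, Creb1, Rfxank, Nfya and Nfyc also fall outside that rule and were named after their values were seen. Epcam was likewise named after its values were seen. The members and gene lists were chosen with earlier results of these data known.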

Additional observations from a re-analysis of the deposited data

Results flagged for a closer look

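H2-Bl, an H2-named row annotated as a pseudogene and therefore not among the members, showed signal above the control level. It had 19, 15 and 40 estimated counts in MC903 with paeonol, 53, 55 and 99 in MC903, and 10, 5 and 8 in control. All MC903 libraries lay above all others, with a log2 change of 3.33 in MC903 against control (edgeR adjusted p = 0.000453). The change was -1.48 in MC903 with paeonol against MC903 (adjusted p = 0.0453) and 1.85 in MC903 with paeonol against control (adjusted p = 0.0248).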

How the results depend on the processing

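Calls of class II members in MC903 against control, and in MC903 with paeonol against control, were made in every alternative other than the skeletal muscle covariate for 6 of 6 and 5 of 6 members, and calls of costimulators for 2 of 2 in MC903 against control and 1 of 2 in MC903 with paeonol against MC903. For class I this held for 7 of 14 in MC903 with paeonol against MC903, 4 of 8 against control and 3 of 6 in MC903 against control. With the covariate included, 4 class I calls in MC903 with paeonol against MC903 were made throughout. The covariate, nearly the group itself, left 5 class I and 0 class II calls in MC903 with paeonol against MC903, 0 and 0 against control, and 0 and 0 in MC903 against control, with 3957, 369 and 1144 of all genes called. Without the expression filter 9 class I members were called in MC903 with paeonol against MC903. In that comparison 1 class II member was called with the fit of 2 groups, and 1 without the second control and the third MC903 library. Leaving out 1 library at a time gave 8 to 15 class I and 0 to 2 class II calls in MC903 with paeonol against MC903, 4 to 12 and 5 to 7 against control, and 4 to 6 and 6 to 7 in MC903 against control. DESeq2 called 16 class I members in MC903 with paeonol against MC903 and 12 against control. No called member changed sign. The cause of these shifts was not tested.

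Libraries with the same replicate number shared little variation: their residuals correlated at -0.01 to 0.04, and those of other pairs at -0.03 to 0.03. Whether a number marks a shared animal, litter or day is not stated, and these correlations cannot settle it. Under the replicate block, 10, 6 and 6 class I and 3, 6 and 6 class II members were called in MC903 with paeonol against MC903, MC903 with paeonol against control and MC903 against control, and 6348, 6673 and 10104 of all genes. Low counts limit H2-Oa, H2-M9, H2-Q2, H2-Eb2 and, with 22 to 60 counts in the paeonol libraries, H2-Q10.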

Other observations

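Other H2-named rows outside the members also differed. H2-K2, annotated as a pseudogene beside H2-K1, had 5.09, 4.54 and 3.76 CPM in MC903 with paeonol, 3.54, 5.82 and 6.19 CPM in MC903, and 7.52, 8.15 and 9.82 CPM in control. Both MC903 groups lay below control, with log2 changes of -0.93 in MC903 with paeonol against control (edgeR adjusted p = 0.00853) and -0.71 in MC903 against control (adjusted p = 0.0208). H2-Q5, a pseudogene among the Qa genes, had 2.60, 1.51 and 1.19 CPM in MC903 with paeonol, 4.25, 4.47 and 5.30 CPM in MC903, and 4.08, 8.61 and 3.14 CPM in control. The paeonol libraries were the 3 lowest, as for H2-Q6 and H2-Q7, and it fell by 1.40 against MC903 (adjusted p = 0.0199). H2-Ke6, an enzyme gene of the same chromosome region, changed by 0.54 in MC903 with paeonol against MC903 (adjusted p = 0.0245) and by -0.97 in MC903 against control (adjusted p = 0.000386).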
